A study of Rattus norvegicus with 4 samples.

Results

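The brush border hydrolases and peptidases are a set of 9 enzymes that gut epithelial cells carry on their luminal surface: Alpi, Anpep, Dpp4, Lct, Si, Mme, Enpep, Mep1a and Mep1b. They were listed by name, and a row of the deposited table was taken for a gene when its RefSeq accession led to that symbol. Of the 9 genes, 7 had a row with a value on all 4 arrays, among 6968 named genes and 18350 measured rows in all. No row led to Lct or Si by name, so lactase and sucrase-isomaltase were not analysed here. Each of the 7 genes had 1 row.

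RNA came from colon pieces of male Sprague Dawley rats and was read on 4 one-color NimbleGen arrays (Cy3), 2 of the control group and 2 of the MSCT group. The labels number the arrays of a group as replicates without saying that each is a separate animal, so a p-value measures only the spread between these arrays. In the study's methods, colitis was induced by TNBS in ethanol, instilled through the anus, and GFP-labeled mesenchymal stem cells from a commercial source were given a day later through the tail vein. The MSCT rats are labeled as IBD rats after transplantation, whereas the control rats are named normal in the sample labels and IBD controls in the paper, so whether they received TNBS is not settled here. The rats' age is not given in the sources used here, and the sources differ on the day of sampling. The pieces covered the lesion and hold the gut wall, not epithelium alone, so fewer cells of a type and less RNA per cell cannot be told apart. The values are linear intensities, compared as log2 values. The array medians differed by at most 0.0747 on that scale, and with so few arrays every value below has a wide error.

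The brush border is the carpet of microvilli on absorptive cells of the gut. Its enzymes are anchored in the membrane and finish digestion at the cell surface: disaccharidases split sugars, peptidases trim small peptides, and alkaline phosphatase removes phosphate, also from bacterial lipopolysaccharide. Most are far more abundant in the small intestine than in the colon. Several are not restricted to epithelium: Anpep (CD13) is also carried by myeloid cells, Dpp4 (CD26) by T cells, Mme (CD10, neprilysin) by stromal cells and granulocytes, and Enpep by pericytes and endothelium.

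The 7 enzymes did not differ in one direction between the groups. Alpi and Anpep were higher in the MSCT group, with log2 differences of 1.39 and 0.91. Dpp4, Mep1a, Mme and Enpep were lower (-0.94, -0.77, -0.77 and -0.66), and Mep1b lay close to its control level (-0.11). The median of the 7 was -0.66, and that of all measured rows was -0.02. In 6 of the 7 genes the groups were apart on every array, 2 with MSCT above and 4 with MSCT below. Over all measured rows, 21.3% did not overlap with MSCT above and 24.5% with MSCT below. Named genes leaned the other way: of 6968, 1925 did not overlap with MSCT above and 1411 with MSCT below, and their median difference was 0.05.

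Each row was tested with limma, in which a row's variance is drawn toward that of the other rows. At an unadjusted p under 0.05, 2 of the 7 genes were higher (Alpi and Anpep) and 2 lower (Dpp4 and Mep1a), and 4.8% of all rows were called higher and 7.17% lower. Of the 6968 named genes, 475 were called higher and 379 lower. The study's screen asks for a p under 0.05 and a fold change over 2. Of the 7 genes, 1 passed it (Alpi, higher), and of all rows 2.12% passed as higher and 2.51% as lower. No row of the table passed an adjusted p of 0.05 by limma (2196 at an unadjusted p under 0.05) or by the methods' t-test (1772). The verbs rose and fell are therefore used here only for an unadjusted p under 0.05.

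**Figure D1:**
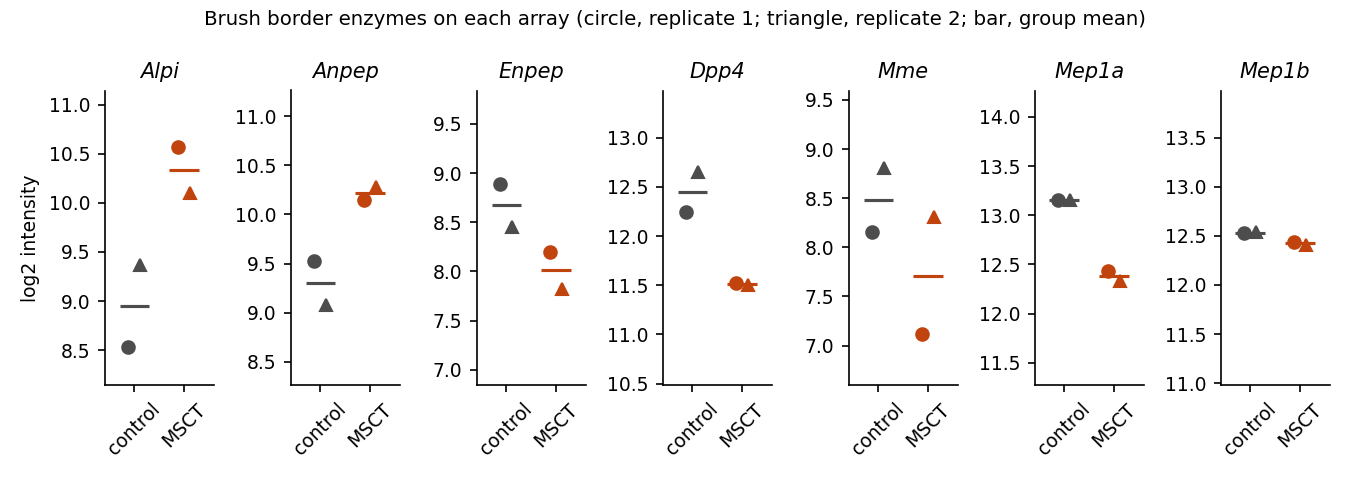
The log2 intensity of each measured enzyme (vertical axis, 3 log2 units in every panel) on the 2 control arrays (grey) and the 2 MSCT arrays (orange), with replicate 1 as a circle, replicate 2 as a triangle and the group mean as a bar. Alpi and Anpep lie higher on both MSCT arrays, Dpp4 and Mep1a lie lower on both, and the groups overlap for Mme.

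The bases before the starts of transcription are shown for the 4 genes that rose or fell, as a view of what they share. They come from the RefSeq promoter table of the rat assembly GRCr8, in which all 9 enzymes had an entry. Each run holds the 250 bases before the annotated start, 5′ to 3′ on the gene's strand, and capitals mark short motifs of factors of gut epithelium: TTTAT (CDX) and GATAA (GATA), searched on both strands.
Alpi (chr9:95224781-95225030, minus strand): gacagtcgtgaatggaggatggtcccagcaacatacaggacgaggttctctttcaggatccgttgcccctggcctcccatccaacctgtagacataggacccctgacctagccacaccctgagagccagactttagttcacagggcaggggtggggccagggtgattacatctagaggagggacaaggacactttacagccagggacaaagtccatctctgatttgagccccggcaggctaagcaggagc
Anpep (chr1:143195102-143195351, minus strand): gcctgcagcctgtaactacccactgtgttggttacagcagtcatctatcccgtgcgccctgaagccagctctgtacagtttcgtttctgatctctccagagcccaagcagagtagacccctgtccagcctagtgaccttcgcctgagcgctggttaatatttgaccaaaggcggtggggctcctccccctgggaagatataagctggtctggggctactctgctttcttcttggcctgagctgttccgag
Dpp4 (chr3:67452423-67452672, minus strand): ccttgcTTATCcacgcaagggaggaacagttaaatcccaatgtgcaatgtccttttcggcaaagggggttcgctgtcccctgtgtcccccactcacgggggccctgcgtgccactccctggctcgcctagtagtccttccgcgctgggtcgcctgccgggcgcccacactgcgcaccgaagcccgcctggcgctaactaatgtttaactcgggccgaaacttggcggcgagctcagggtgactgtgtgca
Mep1a (chr9:24971651-24971900, plus strand): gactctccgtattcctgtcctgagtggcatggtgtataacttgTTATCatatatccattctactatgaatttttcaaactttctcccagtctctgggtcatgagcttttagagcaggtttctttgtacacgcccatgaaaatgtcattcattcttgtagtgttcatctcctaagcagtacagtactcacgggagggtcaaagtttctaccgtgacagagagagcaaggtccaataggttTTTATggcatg

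Among these 4 stretches, Alpi and Anpep held no match. Dpp4 held 1 GATA match and Mep1a 1 CDX and 1 GATA match, while Mep1b, the partner subunit of Mep1a, held none in the same window. Over all 9 enzymes, 4 held a CDX match (Lct, Si, Enpep and Mep1a) and 3 a GATA match (Dpp4, Lct and Mep1a). Of the 33469 promoters of the table, 39.3% held the CDX letters and 23.5% the GATA letters. In Lct, 1 CDX and 1 GATA match overlapped, and Lct and Si had the most matches, 5 and 4. A match of so few letters is a description and not a binding site, and the absence of a match says only that these letters are not in this stretch. The starts used for Anpep and Mme lie 24346 and 65671 bases inside the annotated spans of these genes, so their windows are not those of the outermost annotated start.

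**Figure D2:**
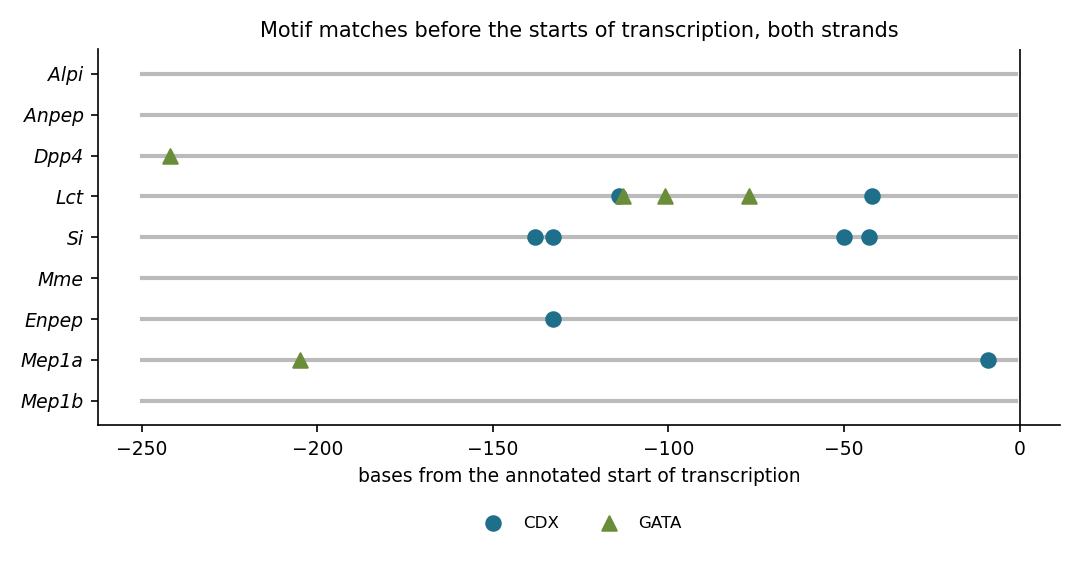
Motif matches (symbols) along the 250 bases before the annotated start of each of the 9 enzymes, with the distance from the start in bases on the horizontal axis. Alpi, Anpep, Mme and Mep1b hold no match, and Lct and Si, which had no measured row, hold 5 and 4.

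Alpi (NM_022665) encodes intestinal alkaline phosphatase, a GPI-anchored enzyme of mature absorptive cells. Control replicates 1 and 2 read 370.4 and 659 intensity units, and MSCT replicates 1 and 2 read 1521 and 1099.7. Both MSCT arrays lay above both control arrays, and the control arrays were the more widely spaced pair, 0.83 apart on the log2 scale against 0.47. Alpi rose from 8.95 ± 0.59 (SD, n = 2) to 10.34 ± 0.33 (SD, n = 2), a log2 difference of 1.39 with a standard error of 0.37 (2.62-fold). The 95% interval ran from 0.41 to 2.37, and the limma adjusted p was 0.330. The call ended without control replicate 1, where the difference of 0.97 was under 2-fold. It also ended without MSCT replicate 1, where the difference was 1.15 and the unadjusted p over 0.05, and by the methods' t-test. Alpl, the tissue-nonspecific relative, was blank on all arrays. Akp3, another intestinal alkaline phosphatase, was dim and scattered, at log2 values of 6.84 and 7.37 in controls and 5.62 and 7.76 after MSCT (difference -0.42, standard error 0.76).

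Some markers of small-intestinal absorptive cells were also higher in the MSCT group. Of 8 listed genes, 6 were measured with positive differences, and 3 passed the screen: Fabp1 (4.01), Fabp2 (3.38) and Apob (1.11), which encode fatty acid binding proteins and an apolipoprotein. Apoa1 (0.50), Apoa4 (0.95) and Rbp2 (0.15) had an unadjusted p over 0.05, and the groups overlapped for Apoa4 and Rbp2. The study listed Fabp1 from these same arrays, so it is no independent evidence. Summed over the list, the intensity was 4116 and 7614 in controls and 13304 and 11923 after MSCT. Of the markers of the ileum, Fabp6 and Slc10a2 were blank. Control replicate 1 was the lower control array for Alpi, Fabp1 (6.34 against 8.18) and Fabp2 (6.56 against 9.02). It was also the lower for Apoa1 (11.56 against 12.13) and Apoa4 (8.92 against 10.96). The control arrays were level for Apob (7.76 on both), and replicate 1 was the higher for Rbp2 (7.78 against 6.97). The part of these markers in the Alpi difference was not tested.

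Anpep (NM_031012) encodes aminopeptidase N, a zinc enzyme that removes neutral amino acids from the ends of peptides. The control replicates read 739.6 and 542.1, and the MSCT replicates read 1138 and 1244. Both MSCT arrays lay above both control arrays. Anpep rose from 9.31 ± 0.32 to 10.22 ± 0.09 (SD, n = 2 each), a log2 difference of 0.91 with a standard error of 0.24 (95% interval 0.27 to 1.55). This is 1.88-fold and so under the limit of the screen, and the limma adjusted p was 0.330. Without control replicate 1 the difference was 1.13 and passed the screen, and without MSCT replicate 2 the unadjusted p was over 0.05.

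Some markers of myeloid cells, which also carry aminopeptidase N, were higher in the MSCT group too. Of 8 listed markers of macrophages and granulocytes, 5 were measured and 4 had positive differences. Cd68 (1.29) and Csf1r (1.00, 2.00-fold) passed the screen, Lyz2 rose by 0.88 without reaching 2-fold, S100a9 had a difference of 0.54, and Cd14 was the exception at -0.04. The summed intensity was 12199 and 13589 in controls and 14587 and 16989 after MSCT. Itgam and S100a8 were blank. The part of these cells in the Anpep difference was not tested.

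Enpep (NM_022251) encodes glutamyl aminopeptidase, which belongs to the same enzyme family as aminopeptidase N and cleaves acidic residues, angiotensin II among its substrates. The control replicates read 474.1 and 350.7, and the MSCT replicates read 294.3 and 225.7. Both MSCT arrays lay below both control arrays, by a gap of 0.25 on the log2 scale, which was smaller than the spacing of either pair. The log2 difference was -0.66 with a standard error of 0.27 (95% interval -1.37 to 0.04, limma adjusted p = 0.438). The difference lay between -0.44 without control replicate 1 and -0.88 without control replicate 2. Its unadjusted p, over 0.05 here, was under 0.05 without control replicate 2, without the lower 25% of rows, relative to epithelial markers and with the replicate block. Of 6 listed markers of endothelium and pericytes, 4 were measured and none had an unadjusted p under 0.05, with differences from -0.39 (Rgs5) to 0.86 (Pdgfrb) and summed intensities of 12858 and 8769 in controls and 10776 and 7476 after MSCT. The part of these cells in the Enpep difference was not tested.

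The differences of aminopeptidases N and A had opposite signs, although that of Enpep did not pass the test. Relative to the mean of the control arrays, Anpep less Enpep on the same array was 0.01 and -0.01 in controls and 1.32 and 1.83 after MSCT. The change of Anpep exceeded that of Enpep by 1.57 on the log2 scale. An exact permutation of 2 arrays against 2 gave a two-sided p of 0.333, the smallest this design allows. This pair and those compared below were chosen after their values were seen.

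Dpp4 (NM_012789) encodes dipeptidyl peptidase IV, a serine peptidase that releases dipeptides behind proline or alanine and inactivates the incretin hormones. The control replicates read 4860 and 6456, and the MSCT replicates read 2942 and 2894. Both MSCT arrays lay below both control arrays and were only 0.02 apart on the log2 scale, against 0.41 for the control arrays. Dpp4 fell from 12.45 ± 0.29 to 11.51 ± 0.02 (SD, n = 2 each), a log2 difference of -0.94 with a standard error of 0.23 (95% interval -1.55 to -0.34). This is 1.92-fold and so short of the screen, and the limma adjusted p was 0.319. Without control replicate 1 the difference was -1.15 and passed the screen, and without MSCT replicate 2 the unadjusted p was over 0.05. Of 8 T cell markers, 3 were measured (Cd3g, Cd4 and Cd8a), with differences of 0.13, 0.37 and 0.01 and overlapping groups, and their summed intensity was 721 and 550 in controls and 694 and 794 after MSCT. Cd3d, Cd2 and Cd5 were blank, and the part of T cells in the Dpp4 difference was not tested.

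Mme (NM_012608) encodes neprilysin, a zinc endopeptidase that degrades tachykinins and other small peptides. Its row was among the dimmer 25% of the table, with intensities of 285.6 and 446.5 in controls and 138.4 and 316.9 after MSCT. It was the only one of the 7 genes in which the groups overlapped. The log2 difference of -0.77 had a standard error of 0.49 and an interval from -2.07 to 0.54 (limma adjusted p = 0.580). Single arrays decided its size, since it was -0.17 without MSCT replicate 1, -0.45 without control replicate 2 and -1.37 without MSCT replicate 2, where it passed the screen. Fibroblast markers, 4 of 6 measured, had a median difference of 0.32, and of these Col1a2 rose by 0.62. The summed intensity of the 4 markers was 39945 and 26068 in controls and 43080 and 45099 after MSCT. The part of fibroblasts in the Mme values was not tested.

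Meprins are zinc endopeptidases of the brush border built from 2 kinds of subunit. Mep1a encodes the α subunit, which is released into the lumen when it is not held by the β subunit, and Mep1b encodes the β subunit, which spans the membrane. Mep1a (NM_013143) read 9119 and 9142 in controls and 5548 and 5136 after MSCT. The control arrays were 0.0035 apart on the log2 scale and the MSCT arrays 0.11, while the gap between the groups was 0.72. Mep1a fell from 13.16 ± 0.0025 to 12.38 ± 0.08 (SD, n = 2 each), a log2 difference of -0.77 with a standard error of 0.18 (95% interval -1.27 to -0.28, 1.71-fold lower). The limma adjusted p was 0.312. When single arrays were dropped, the difference lay between -0.83 and -0.72, and the unadjusted p was over 0.05 without either MSCT replicate.

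Mep1b (NM_013183) read 5890 and 5970.0 in controls and 5561 and 5425 after MSCT. The groups did not overlap, but the gap between them was 0.08 on the log2 scale. The difference of -0.11 had a standard error of 0.18 and an interval from -0.59 to 0.37 (limma adjusted p = 0.829). Relative to the mean of the control arrays, Mep1a less Mep1b on the same array was 0.01 and -0.01 in controls and -0.63 and -0.70 after MSCT. The difference of Mep1a thus lay 0.66 below that of Mep1b on the log2 scale (1.58-fold), a value that multiplying an array by a constant leaves as it is. The exact permutation p was again 0.333, the smallest for this design, so the test cannot show that the subunits differ.

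**Figure D3:**
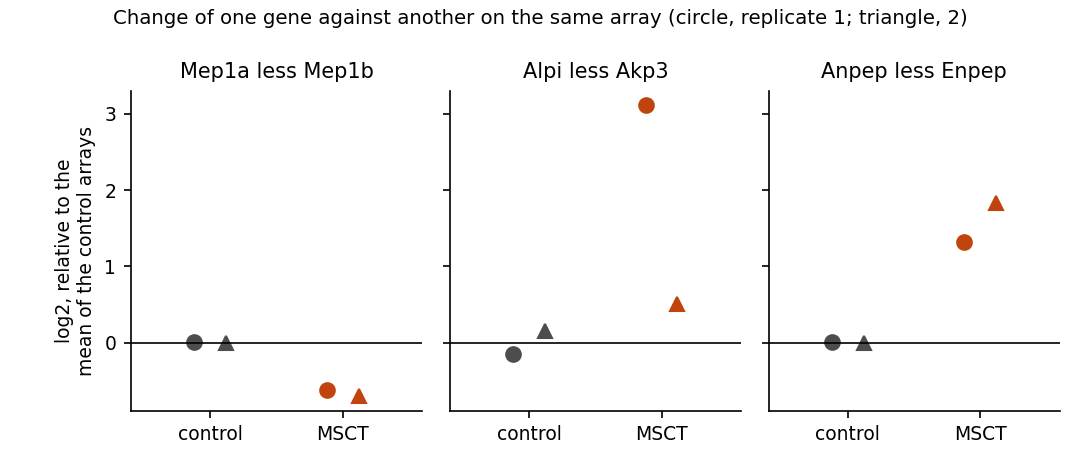
The log2 value of one gene less that of another on the same array, relative to the mean of the control arrays (vertical axis), for the meprin subunits, the alkaline phosphatases and the aminopeptidases; grey, control; orange, MSCT. Mep1a less Mep1b is at -0.63 and -0.70 on the MSCT arrays, Anpep less Enpep is at 1.32 and 1.83, and the MSCT arrays are far apart for Alpi less Akp3 (3.11 and 0.50).

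In another setting the variance was allowed to depend on intensity and was estimated robustly against outlying rows, options that were not tried apart. Dpp4 and Mep1a then passed an adjusted p of 0.05 over all rows (0.0259 and 0.0225), as 387 rows of the table did. Alpi and Anpep did not (0.0699 and 0.132). Over the alternatives tried, the adjusted p lay between 0.0259 and 0.687 for Dpp4, 0.0225 and 0.691 for Mep1a, 0.0699 and 0.708 for Alpi, and 0.0662 and 0.687 for Anpep.

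**Figure D4:**
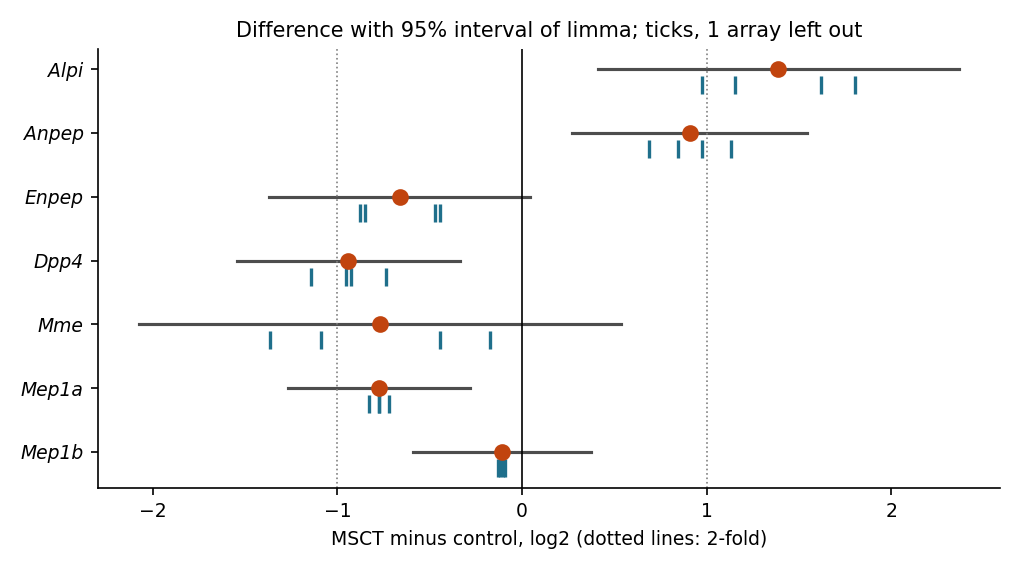
The difference between MSCT and control on the log2 scale (horizontal axis) for each measured enzyme, with the 95% interval of limma as a line and the difference with each array left out as ticks. The intervals of Alpi, Anpep, Dpp4 and Mep1a lie to one side of 0, and the ticks of Mme spread from -1.37 to -0.17.

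Epithelium was followed through the RNA of 9 markers, all of which had a value, and such RNA does not count cells. Their differences ran from -0.08 (Cldn3) to 0.46 (Cldn4), with a median of 0.12 and none at an unadjusted limma p under 0.05. By the methods' t-test 2 had an unadjusted p under 0.05, as did 1772 of all 18350 rows. The groups did not overlap with MSCT above in 5 markers and with MSCT below in 0, against 21.3% and 24.5% of all rows. Among the 6968 named genes these counts were 1925 and 1411. Their summed intensity was 198080 and 194308 in controls and 219554 and 211381 after MSCT. Of the markers of colonic absorptive cells, 6 of 7 were measured, with differences from -0.30 (Aqp8) to 0.68 (Slc9a3). Among them, Car4 and Slc26a3 were bright on every array (13.77 to 14.26 and 14.61 to 14.99). When each array was set relative to its epithelial markers, a choice made after the data were examined, the log2 difference of every row shifted by -0.15. Dpp4 then differed by -1.10 and passed the screen, Mep1a by -0.93, Mme by -0.92, Enpep by -0.82, Mep1b by -0.26, Anpep by 0.76 and Alpi by 1.23. On that scale 267 rows of the table passed as higher and 809 as lower, against 389 and 461.

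Other enzymes of the brush border had a median difference of 0.52, opposite in sign to that of the 7 genes. Of 16 listed, 10 were measured, 8 with positive and 2 with negative differences, and 1 passed the screen. This was Dpep1, a GPI-anchored dipeptidase, which rose from 11.10 and 11.62 in controls to 13.09 and 12.98 after MSCT (difference 1.67, standard error 0.25). Xpnpep2, an aminopeptidase that acts before proline, had a difference of 1.24 and a standard error of 0.51, with its control arrays at 6.25 and 7.67. Ace, the angiotensin-converting enzyme, had 0.87 with control arrays at 9.30 and 7.70. Enpp3, an ectonucleotidase, had 0.27. Naaladl1, a peptidase of the ileal brush border, had -0.86 with a standard error of 0.35. Of these, only Dpep1 had an unadjusted p under 0.05. Treh and Mgam, the disaccharidases trehalase and maltase-glucoamylase, had no row by name.

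Of 14 listed genes of the microvillus scaffold, 5 were measured (Ezr, Espn, Cdhr5, Nherf1 and Pdzk1), with a median of -0.11 and none at an unadjusted p under 0.05. Ezr, which links actin to the membrane, differed by 0.09, and Cdhr5, a cadherin of the links between microvilli, by -0.28. Espn, an actin-bundling protein, had -0.61 with a standard error of 0.25.

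Carriers that take up the products of these enzymes had a median difference of 0.21, with 4 of 7 measured genes positive and 3 negative. Slc15a1, the carrier of di- and tripeptides, had -0.57, at 12.42 and 11.57 in controls and 11.09 and 11.75 after MSCT. Slc5a1, the sodium-glucose cotransporter, had -0.45. Slc2a2, a glucose and fructose carrier, had 1.14 with a standard error of 0.76 and overlapping groups, at 7.67 and 9.87 in controls and 10.02 and 9.79 after MSCT. Slc7a9 (0.58), Slc1a1 (0.22) and Slc2a5 (0.21) also had positive differences with overlapping groups, and none of these 6 carriers had a p under 0.05. Slc36a1, a proton-coupled carrier of small amino acids, was the only one past the screen and fell by 2.46 (standard error 0.26, limma adjusted p = 0.257). It too was listed by the study from these arrays.

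Of 12 transcription factors known to act on brush border genes, 9 were measured and none passed the screen. Elf3, an epithelial ETS factor, fell by 0.72 (standard error 0.19, limma adjusted p = 0.330), from 13.65 and 13.80 to 13.00 and 13.01. Cdx2 had a difference of 0.48, Hnf4a -0.30, Gata4 -0.53 and Gata6 0.17, all with an unadjusted p over 0.05.

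**Figure D5:**
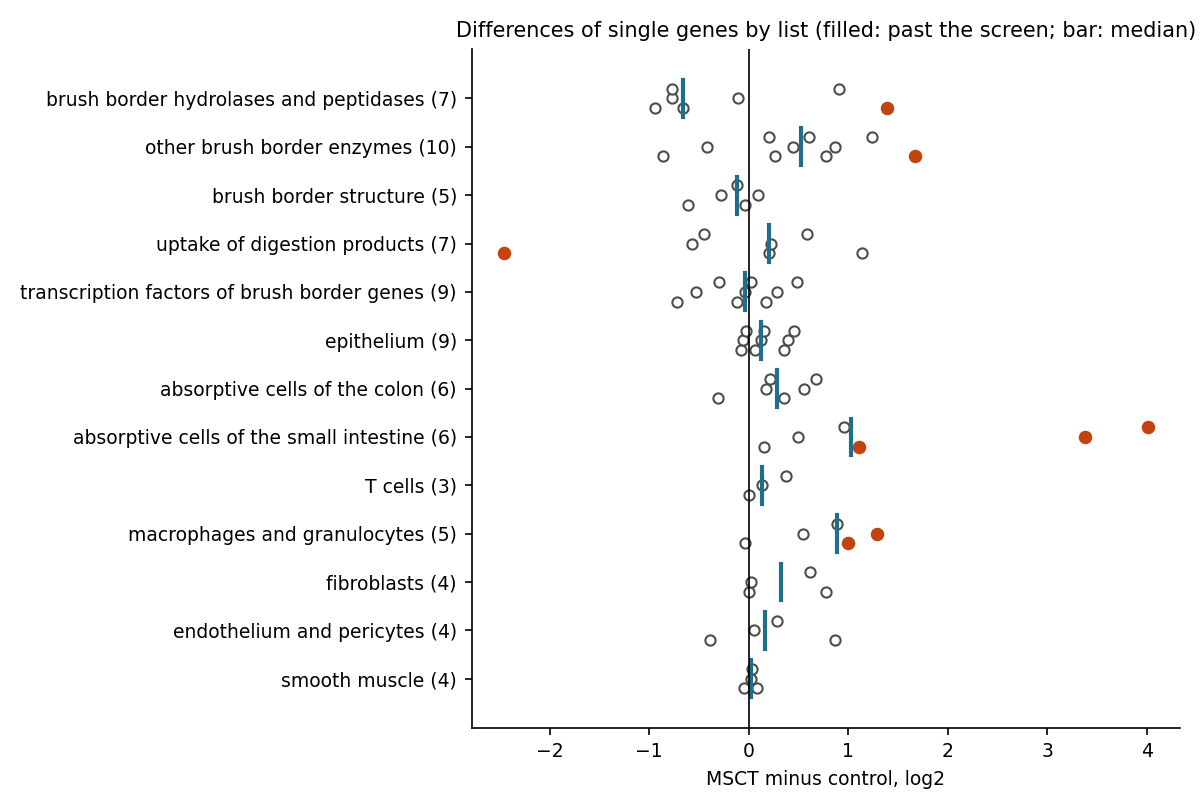
The difference between MSCT and control on the log2 scale (horizontal axis) of each measured gene, by list, with the number of measured genes in brackets. Filled points passed the screen and the blue bar is the median; the 7 hydrolases and peptidases lie on both sides of 0 with a median of -0.66, and the small-intestinal markers are all above 0.

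The genes whose pattern over the 4 arrays was most like that of 2 of the enzymes were found as the smallest Euclidean distance between log2 values, each row centered on its own mean, among the 6968 named genes. For Alpi, the enzyme with the largest positive difference, these were Rab15 (distance 0.14), Txk (0.16) and Tpsg1 (0.19). Rab15 stood at 10.82 and 11.51 in controls and 12.85 and 12.24 after MSCT. For Dpp4, the enzyme with the largest negative difference, they were Olr1481, Gtpbp3 and Tsku (0.11 each). With 4 arrays such a likeness describes these arrays only.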

How the data were processed

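Total RNA of colon tissue was copied into cDNA, labeled with Cy3 and hybridized to NimbleGen arrays, scanned on a GenePix scanner and extracted with NimbleScan. The authors deposited 1 linear intensity per RefSeq transcript and array, and the submitters' processing notes name RMA, which corrects background, evens out arrays by quantiles and combines probes; its version and the order of steps are not given in the sources used here. Of 26420 rows, 8070 were blank on all 4 arrays by a rule that is not stated, and 0 value columns had no sample. Because blank rows are not explained, the measured genes are not all genes of a list.

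Intensities were used as log2 values without pseudocount, further scaling or filter. Symbols came from RefSeq's GRCr8 gene list, matched on accession without version, and the brightest row stood for a gene. MSCT and control were compared by lmFit and eBayes of limma 3.58.1 under R 4.3.3 over all 18350 rows, with Benjamini-Hochberg adjustment across them. The fit was tested on simulated data. The members and the gene lists were chosen with earlier results of these data known. Named in the text are all members, list genes past the screen, relatives of members, the brightest genes of a list and the nearest patterns; all other list genes (Xpnpep2, Naaladl1, Espn, Akp3, most of the transcription factors and markers among them) were chosen after their values were seen. Some list genes are counted but their values are not reported here. Settings also tried were quantile normalization, equal medians, a plain t-test, an offset of 50, leaving out dim rows and an intensity-dependent variance estimated robustly against outlying rows. A replicate block, leaving out arrays, 1 row per gene, linear means and, added later, scaling to epithelium markers were tried too. Python 3.11.15 with pandas 2.3.3, scipy 1.17.1 and matplotlib 3.10.9 was used for names, exact permutations and figures.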

Additional observations from a re-analysis of the deposited data

How the results depend on the processing

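Of the differences of the 7 enzymes, 63 were recomputed under settings that move the value, and these 63 had the sign given in the report. Much of this was fixed in advance. Where the groups do not overlap, leaving out an array, the offset and the linear means cannot change the sign. The t-test, the row filters, the intensity-dependent variance, the block and 1 row per gene change only the error. With 1 array left out in turn, which leaves a lone array assumed to vary like the other group, the difference lay between 0.97 and 1.80 for Alpi, between 0.69 and 1.13 for Anpep, between -1.15 and -0.74 for Dpp4 and between -1.37 and -0.17 for Mme. The number of enzymes past the screen then lay between 0 and 2, and that of rows between 934 and 1565, the latter without control replicate 2 (1503 without MSCT replicate 2), against 1 and 850. With the plain t-test, 0 enzymes and 388 rows passed, and Alpi (1.39) was no longer called. By that test Mep1b, with SDs of 0.01 and 0.03 within groups, had an unadjusted p under 0.05, as Dpp4 and Mep1a did, and Anpep did not. Without the lower 50% of rows by mean, 251 rows passed and 0 enzymes, since Alpi, Enpep and Mme were among the rows left out, and with 1 row per named gene 337 rows passed, because fewer rows were tested. Relative to epithelium markers, 2 enzymes passed, Dpp4 (-1.10) beside Alpi. With the replicate block, 1 enzyme and 971 rows passed, and Mme and Enpep (adjusted p = 0.313 and 0.302) had an unadjusted p under 0.05. Samples of one number share only the number in the labels; the correlation of their deviations across rows was 0.23. No enzyme had more than 1 row, so the choice of row could not be varied.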
